A study of Mus musculus with 5 samples.

Results

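The 89 genes described here encode tubulins, the kinesin and dynein motors that walk along microtubules, and proteins that bundle, stabilise or destabilise microtubules. They were taken by symbol, without any measured value, from the 22028 protein-coding genes of GENCODE M21 on the mm10 build of the mouse genome. The symbols were Kif, Kifc, Klc, Tuba, Tubb, Tubg, Stmn or Eml followed by a number, any symbol starting with Dync, and Map1a, Map1b, Map2, Map4, Mapt, Dcx and Dclk1 to Dclk3. A gene was tied to each Pou4f1 region that overlapped its body or lay within 10 kb of it. This gave 70 of the 8038 regions of the deposited table and at least 1 region for 53 of the 89 genes, while 36 genes had none.

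Occupancy of Pou4f1, a POU homeodomain factor of retinal ganglion cells (RGCs), was mapped by CUT&Tag, in which an antibody tethers a transposase that cuts and tags the nearby DNA. Every library was made from wild-type mouse retina at embryonic stage E16.5, with 4 retinas pooled and dissociated with papain. Rabbit anti-Pou4f1 antibody was used for 2 libraries and rabbit IgG, the negative control, for 2 libraries, while 1 library with anti-H3K9AC antibody was not analysed here. The whole retina at this stage holds progenitors, amacrine cells and other cell types beside RGCs, and the table holds no expression values, so neither the cell type behind a signal nor the level of any gene's RNA was measured. The Pou4f1 values carry replicate numbers, whereas the control columns carry none. One is called IgG and the other negative control, and the negative control was read here as rabbit IgG too.

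Microtubules are polar polymers of alpha- and beta-tubulin, and in the long axon of an RGC they are the tracks between the soma in the retina and the terminals in the brain. Most kinesins carry cargo towards the plus end and the axon tip, and cytoplasmic dynein carries it back. Some kinesins work in the mitotic spindle instead, where they separate chromosomes or divide the cell, and are highest in cycling progenitors. Microtubule-associated proteins (MAPs), doublecortins and stathmins set how stable the polymer is while axons and dendrites grow.

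Since POU factors read AT-rich DNA, the sequences of the 70 regions were searched on both strands for a POU consensus, written as ATNAATAATT or ATNAATTATT, and for the short core TAATTAAT. The consensus lay in the central 200 bp of 1 of 70 regions (1.43%), at Tuba4a, beside 4.38% of the 8028 regions searched. It lay anywhere in 4 of 70 regions (5.71%), at Tuba4a, Stmn2, Dclk1 and Kif28, beside 11.1% of all regions. The short core lay in the central 200 bp of 1 of 70 regions (1.43%), an intron region of Kif5c, beside 1.21% of all regions. The windows holding these letters are given first, with the consensus or core in capitals, followed by regions of the highest Pou4f1 signal, which held neither. All are from the RefSeq GRCm38.p6 assembly, whose chromosomes are those of mm10.
Tuba4a, 3′ untranslated part of the last exon, chr1:75214655-75214684, minus strand: caccagcctcATCAATTATTaaccatgtgt
Stmn2, 5′ untranslated part of the first exon, chr3:8509445-8509474, plus strand: tctgcgtgatAATTATTCATgggctcctgc
Kif28, upstream of the start, chr1:179745276-179745305, minus strand: atggacgcttAATAATTGATacctaaaagc
Dclk1, intron, with overlapping matches on opposite strands, chr3:55259692-55259891, plus strand: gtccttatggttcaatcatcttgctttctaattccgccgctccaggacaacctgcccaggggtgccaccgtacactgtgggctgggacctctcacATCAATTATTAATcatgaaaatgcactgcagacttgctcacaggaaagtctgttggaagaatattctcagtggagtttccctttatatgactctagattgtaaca
Kif5c, intron, with the short core, chr2:49679341-49679540, plus strand: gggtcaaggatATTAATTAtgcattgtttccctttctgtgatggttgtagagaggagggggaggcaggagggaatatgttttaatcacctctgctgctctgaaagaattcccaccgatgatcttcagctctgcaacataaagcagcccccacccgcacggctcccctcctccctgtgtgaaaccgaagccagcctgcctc
Eml1, centre of the region with the highest signal, chr12:108396332-108396531, plus strand: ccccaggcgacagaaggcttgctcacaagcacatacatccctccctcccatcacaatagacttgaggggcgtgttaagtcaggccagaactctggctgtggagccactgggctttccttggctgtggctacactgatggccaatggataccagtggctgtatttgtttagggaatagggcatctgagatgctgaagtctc
Kif26b, centre of the region with the next highest signal, chr1:178762251-178762450, plus strand: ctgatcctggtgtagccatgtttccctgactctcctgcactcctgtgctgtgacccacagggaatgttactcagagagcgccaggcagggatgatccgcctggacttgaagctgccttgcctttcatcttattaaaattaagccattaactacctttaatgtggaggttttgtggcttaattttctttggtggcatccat

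The letters are a description and not a measured binding site, and a window without them says nothing about whether Pou4f1 bound there. The Kif28 window is also annotated as the 3′ untranslated part of Ahctf1. The Kif26b window held no consensus and no short core but TAAT or ATTA at 5 places, whereas the Eml1 window held none. Among the 22 member regions away from any start, 1 held the consensus in its central 200 bp (4.55%), beside 11% of the 2881 such regions in the table.

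A Pou4f1 region within 10 kb was found for 59.6% of the 89 genes, with a 95% exact binomial interval from 48.6% to 69.8%, beside 34.8% of all protein-coding genes. At an annotated start of the gene itself (within 1 kb), 35 of 89 genes (39.3%, interval 29.1% to 50.3%) had a region, beside 24.8% of all protein-coding genes. The intervals treat genes as independent draws, which neighbouring and paralogous genes are not, and no test was made because the members were chosen with earlier results of these data known. Under a gene-body rule with no margin the share was 47.2% beside 27.7%. Counting only regions for which no other coding gene was nearer, ties included, it was 50.6% beside 28.9%.

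The roles differed in how many of their genes had a region (the plot of shares by role). Kinesins outside the transport and mitotic groups had 11 of 13 genes with a region, structural MAPs 4 of 5, doublecortins 3 of 4 and kinesin light chains 3 of 4. Cytoplasmic dynein followed with 5 of 7 genes, transport kinesins with 12 of 17, and the EML proteins, which bind microtubules through WD repeats, with 4 of 6. The lowest shares were 6 of 17 for tubulins, 4 of 12 for mitotic kinesins and 1 of 4 for stathmins. The transport group was set by a list and also holds Kif26b, an atypical kinesin, and Kif26a, which lacks motor activity. The order of roles differed for regions at an own start. There, structural MAPs had 4 of 5 genes, kinesin light chains 3 of 4 and cytoplasmic dynein 4 of 7. Doublecortins had 2 of 4, EML proteins 3 of 6, transport kinesins 7 of 17 and the other kinesins 5 of 13. The lowest were mitotic kinesins with 3 of 12, stathmins with 1 of 4 and tubulins with 3 of 17. These groups are small and no difference among them was tested.

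**Figure D1:**
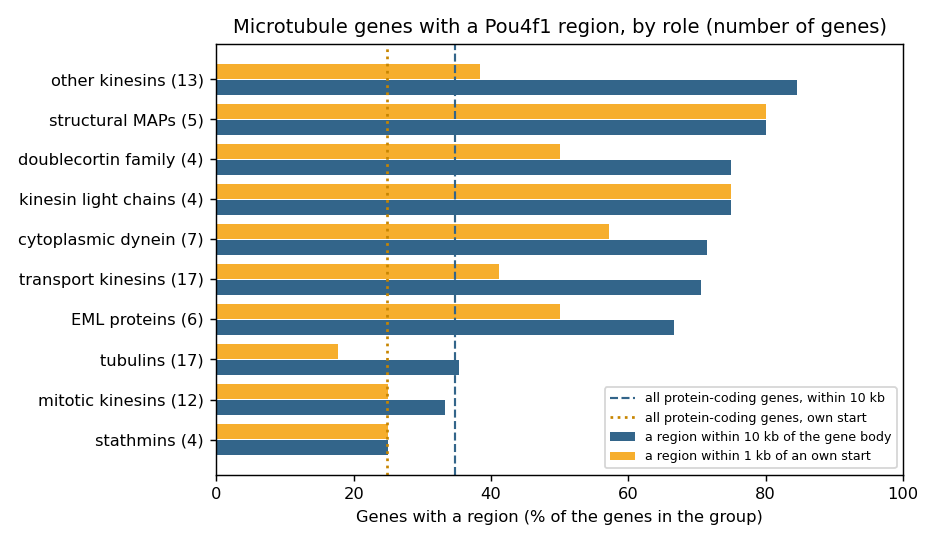
Percent of the genes in each role group, number of genes in brackets, with a Pou4f1 region within 10 kb of the gene body (blue bars) or within 1 kb of one of its own starts (yellow bars). The dashed and dotted lines mark 34.8% and 24.8% of all protein-coding genes, and the tubulins (35.3%), mitotic kinesins (33.3%) and stathmins (1 of 4) lie near or below the dashed line.

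Members were longer than most genes, with a median length of 37.7 kb against 17.3 kb, and a longer body can hold more regions. Among genes under 10 kb, 7 of 21 members (33.3%) had a region within 10 kb beside 22.1% of all coding genes of that length. Among genes of 10 to 100 kb it was 29 of 47 (61.7%) beside 38.7%, and above 100 kb 17 of 21 (81.0%) beside 56.9%. The members' share was thus above that of all genes in each length class, although in the shortest class its interval (14.6% to 57.0%) held the value of all genes.

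Genes were also split by the observed to expected CpG ratio of the 1 kb around their outermost annotated start. This split was added after the data were seen. With a ratio of 0.6 or more, 27 of 61 members (44.3%) had a region at their own start, beside 44.6% of all such genes. With a lower ratio, 8 of 28 members (28.6%) had one, beside 8.22%. So among genes with a CpG-rich outermost start, the members' share equalled that of all such genes to within its interval (31.5% to 57.6%). The excess lay in the 28 members classed as CpG-poor. A region at any annotated start was counted, so the start that was classed need not be the one with the region, as at Eml1 and Kif5b. Within 10 kb the shares were 65.6% beside 55.4% for CpG-rich and 46.4% beside 17.6% for CpG-poor starts.

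**Figure D2:**
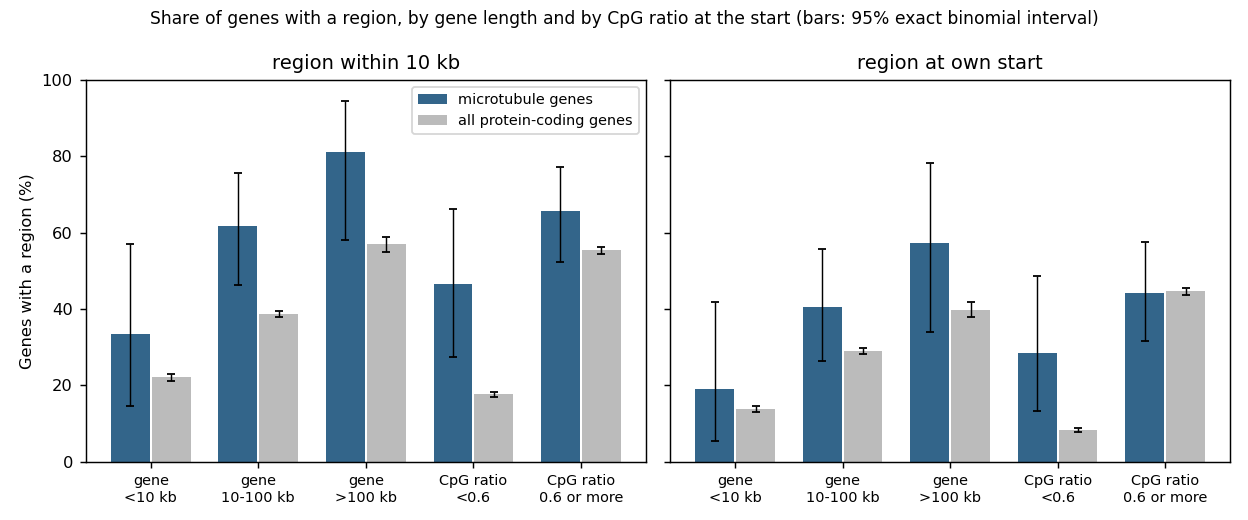
Percent of genes with a Pou4f1 region within 10 kb (left) or within 1 kb of an own start (right). Microtubule genes are blue and all protein-coding genes grey. Classes are by gene length and by CpG ratio at the outermost start of the gene, with 95% exact binomial intervals. The members' bar stands above the grey bar in every class at left, and at right in all but the CpG-rich class (44.3% beside 44.6%).

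Signal in the 70 regions was compared between antibodies with limma on log2(signal + 1), fitted over all 8038 regions with Benjamini-Hochberg adjustment and a threshold of 0.05. Since the authors picked the regions for their Pou4f1 signal, part of any excess over IgG comes from that choice. Of the 70 regions, 44 (62.9%) passed the threshold with higher signal in Pou4f1, beside 64.8% of all regions, so the members' share was near the background. None passed in the opposite direction (0 also at an unadjusted limma p under 0.05), beside 0.224% of all regions. The lower Pou4f1 value exceeded the higher IgG value in 68 of 70 regions (97.1%), beside 96.5% of all. The median log2 difference was 5.27 for members and 5.22 for all regions.

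Which regions passed followed the zeros of the control. All 11 member regions listed at 0 in both IgG libraries passed, as did 18 of 21 with signal in both. Only 15 of 38 listed at 0 in 1 of them passed. Over all regions the counts in the same order were 1829 of 1835, 1990 of 2687 and 1386 of 3516, so the pattern was that of the whole table. In a region of 1000 bp the most frequent signal above 0 was 12 in the library named IgG and 14 in the negative control, so a control at 0 in 1 library and near these values in the other differs by about the smallest common step of the signal. With 2 libraries against 2, an exact permutation test of 1 region cannot reach p = 0.05.

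**Figure D3:**
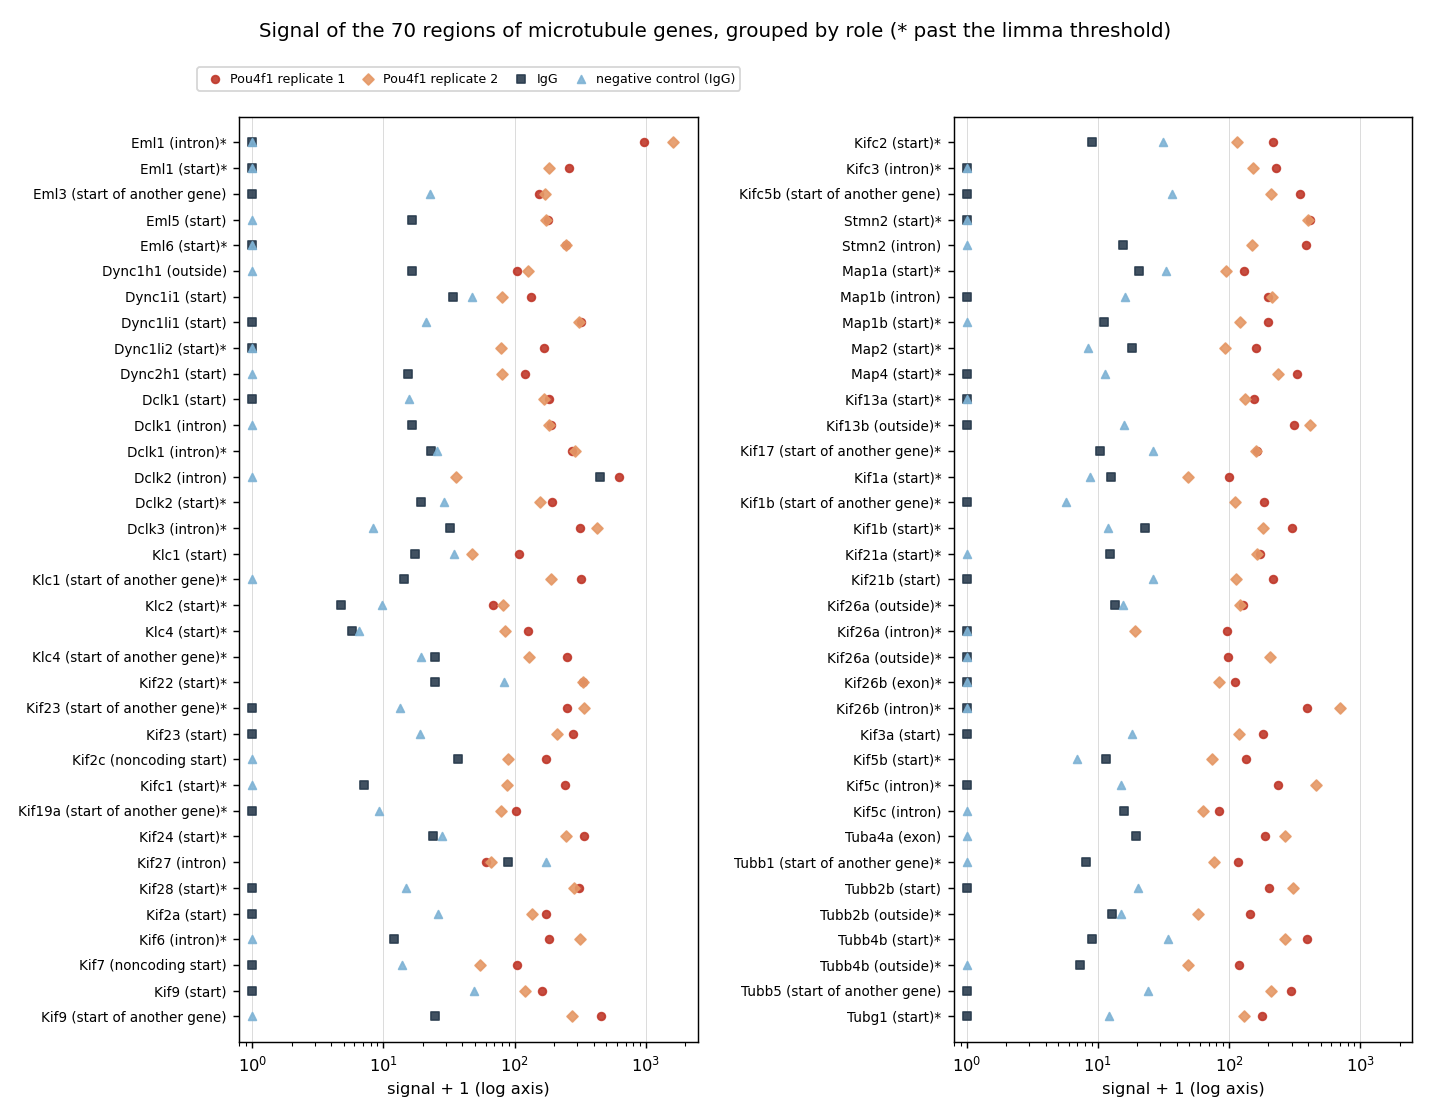
Signal plus 1 on a log axis in each of the 4 libraries for the 70 regions of microtubule genes, named by gene and place and grouped by role, with Pou4f1 in red and orange and the IgG controls in dark and light blue. Controls at 0 sit at the left edge, the Pou4f1 points lie to their right in 68 of 70 regions, and the exceptions are the intron regions of Kif27 and Dclk2.

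Transport kinesins, with Kif26a and Kif26b counted among them, held 17 regions, of which 14 passed the threshold, beside 64.8% of all regions. The highest signal among them was in intron 4 of Kif26b, an atypical kinesin tied to Wnt5a signalling (chr1:178762072-178762628). It was 393 and 704 in the Pou4f1 replicates and 0 in both IgG libraries, with a log2 difference of 9.04 (SE 0.50, limma adjusted p = 0.00222). It lay 36.1 kb before the nearest annotated start of the gene and ranked 263 of 8038 by mean Pou4f1 signal.

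Kif26a, a relative of Kif26b without motor activity, was 1 of only 2 members with 3 regions. The region 2.74 kb before its start (chr12:112142998-112143939) had signals of 126 and 120 beside 12.5 and 14.4 in IgG, and the region beyond its end (chr12:112190462-112191559) had 97.2 and 206 beside 0 and 0. Both passed the threshold (adjusted p = 0.0102 and 0.00372). The region in intron 4 also passed (adjusted p = 0.0238), but its replicates differed by over 4-fold, at 96.4 and 18.3, beside 0 and 0 in IgG.

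Kif5a, Kif5b and Kif5c encode the heavy chains of kinesin-1, the main motor of anterograde axonal transport. In intron 2 of Kif5c (chr2:49678946-49679935), which holds the short core shown above, signal was 237 and 458 in Pou4f1 beside 0 and 13.9 in IgG (log2 difference 6.42, SE 1.63, adjusted p = 0.0429). A further Kif5c region in its last intron had 83.0 and 62.9 beside 14.9 and 0 and did not pass (adjusted p = 0.0883). Neither lay at the Kif5c start. Kif5b, the widely expressed form, had a region at its start with 133 and 72.6 beside 10.6 and 5.97, which passed (3.46, SE 0.58, adjusted p = 0.0200). Kif5b met none of the rules for naming regions and is given beside its relatives. For Kif5a, a neuronal form, the nearest region was 27.2 kb away.

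Kif1a carries precursors of synaptic vesicles. Its region at the start was weak, with 98.3 and 47.5 in Pou4f1 beside 11.6 and 7.78 in IgG, and passed with a log2 difference of 2.72 (SE 0.59, adjusted p = 0.0331). Its relative Kif1b, which moves mitochondria and vesicles, had 303 and 182 beside 21.9 and 10.95 at its start (3.83, SE 0.60, adjusted p = 0.0172). A second Kif1b region, with 185 and 110 beside 0 and 4.72, lay at the start of Pgd, the gene of an enzyme of the pentose phosphate pathway (adjusted p = 0.0248).

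Other transport motors had a single region or none. Kif21a, whose product holds back microtubule growth, had 173 and 162 at its start beside 11.4 and 0 (adjusted p = 0.0466). Kif3a, a subunit of the heterotrimeric kinesin-2 of cilia and axons, had 181 and 118 beside 0 and 17.2 and did not pass (adjusted p = 0.0685). The partners of Kif3a, Kif3b and Kif3c, had no region within 10 kb, the nearest being 276 kb and 19.6 kb away. Kif13b, a motor of the kinesin-3 family, had a region 5.20 kb before its start with 310 and 415 beside 0 and 14.8 (6.50, SE 1.62, adjusted p = 0.042), a gene added to the named ones after its values were seen.

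Kinesin light chains tie kinesin-1 to its cargo. Klc1, a light chain abundant in neurons, had 108 and 46.6 at its start beside 16.45 and 33.4, among the 3 smallest differences of all member regions (1.55, SE 0.71, adjusted p = 0.121). Its second region was higher, at 321 and 187 beside 13.4 and 0 (adjusted p = 0.0465), but lay at the starts of Xrcc3 and Zfyve21 downstream of Klc1. The start of Klc2 had the lowest Pou4f1 signals of the group in replicate 1, with 67.4 and 80.1 beside 3.78 and 8.82, and passed with a log2 difference of 3.44 (SE 0.56, adjusted p = 0.0189). Klc3 had no region, and both Klc4 regions passed.

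The cytoplasmic dynein group, Dync1 and Dync2 genes together, had regions at 5 of 7 genes. Of its Dync2 genes, Dync2h1 had a region and Dync2li1 none. In the group 1 of 5 regions passed, beside 64.8% of all regions, namely that at the start of the light intermediate chain gene Dync1li2. Of the 4 others, 3 were at 0 in 1 control library. The region with the highest signal was at the start of its relative Dync1li1, with 318 and 308 in Pou4f1 beside 0 and 20.02 in IgG (6.10, SE 1.77, adjusted p = 0.0541). Dync1h1, the heavy chain, had no region at its start, and the one 9.94 kb upstream had 103 and 125 beside 15.5 and 0 (adjusted p = 0.0708). The body of another coding gene was nearer to that region, although no other coding start was. Dync1i1, the neuronal intermediate chain, had 131 and 79.4 beside 32.8 and 46.1, so its Pou4f1 values exceeded the higher control by less than 3-fold (1.37, SE 0.50, adjusted p = 0.0811).

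Structural MAPs had a region at the start of 4 of their 5 genes, beside 24.8% of all protein-coding genes. Of their 5 regions 4 passed, beside 64.8% of all regions. At the start of Map4, a broadly expressed MAP, signal was 330 and 236 beside 0 and 10.3 (6.38, SE 1.44, adjusted p = 0.0357). At the start of Map2, the classic dendritic MAP, it was 159 and 92.8 beside 17.2 and 7.40 (3.31, SE 0.65, adjusted p = 0.0278). Map1b, which is abundant in growing axons, had a region at its start with 197 and 120 beside 10.1 and 0 (adjusted p = 0.0455). A further Map1b region in its first intron had 197 and 213 beside 0 and 15.3 (adjusted p = 0.0532). Mapt, which encodes tau, was the exception, with the nearest region 110 kb away at Kansl1.

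The doublecortin family stabilises microtubules in migrating and extending neurons, and the region count differed across it. Dclk1 had 3 regions. At its start, signal was 180 and 167 beside 0 and 14.7 (adjusted p = 0.0554), and in the intron region with the overlapping consensus matches it was 187 and 183 beside 15.5 and 0 (adjusted p = 0.0562). The other region in intron 3 (chr3:55347431-55348546) had 274 and 289 beside 21.9 and 24.7 and passed (3.54, SE 0.38, adjusted p = 0.00749). The Pou4f1 replicates agreed closely in all 3 regions, and the pair that missed the threshold were those with 1 control at 0.

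Dclk3 had a region in its first intron with 314 and 419 beside 31.3 and 7.30, which passed (4.47, SE 0.87, adjusted p = 0.0273). The start of Dclk2 had 192 and 155 beside 18.2 and 27.9 and passed as well (2.88, SE 0.46, adjusted p = 0.0177). Its intron region (chr3:86910226-86910656) stood apart, since signal was high in Pou4f1 replicate 1 (628) and in the library named IgG (445), and low in Pou4f1 replicate 2 (34.9) and the negative control (0). It had the largest replicate difference of all members, and no difference between antibodies could be called there (2.83, SE 3.85, adjusted p = 0.516). The nearest region to Dcx itself was 183 kb away.

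Stathmins bind free tubulin and promote the loss of polymer, and Stmn2 is a neuronal form found in growth cones. The region at the start of Stmn2 (chr3:8508564-8509706) had 414 and 396 in Pou4f1 and 0 in both IgG libraries, with a log2 difference of 8.66 (SE 0.37, adjusted p = 0.00222). It was the only region at a member's own start among the top 10% of all regions by mean Pou4f1 signal, ranking 695 of 8038. A second region in its first intron had 387 and 149 beside 14.6 and 0 and did not pass (5.93, SE 1.69, adjusted p = 0.0528). Stmn1, Stmn3 and Stmn4 had no region within 10 kb.

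EML proteins held the highest values of all. Eml1 is a gene needed for the normal position of cortical progenitors. In an intron of it (chr12:108396042-108396820), the Pou4f1 replicates had 967 and 1601 and both IgG libraries 0 (10.28, SE 0.47, adjusted p = 0.00222). It ranked 5 of 8038 by mean Pou4f1 signal. The intron is the first of a retained-intron transcript that starts upstream, and the region lay 14.1 kb before the first start of the coding transcripts. At that coding start (chr12:108410513-108411050), signal was 257 and 181 beside 0 and 0 (7.76, SE 0.42, adjusted p = 0.00222). Eml6 also passed, Eml3 and Eml5 did not, and Eml2 and Eml4 had no region.

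Tubulins had a region for 6 of 17 genes (35.3%), near the 34.8% of all protein-coding genes. Their median length was 5.88 kb, and 22.1% of all coding genes under 10 kb had a region. The neuronal genes Tubb3, Tubb2a and Tuba1a were among those without one, with the nearest regions 20.3, 36.4 and 31.3 kb away at the starts of Def8, Bphl and Lmbr1l. Tubb2b, the neuronal beta-tubulin mutated in cortical malformation, had 200 and 305 at its start beside 0 and 19.1 (5.79, SE 1.76, adjusted p = 0.0586). A region 1.24 kb upstream of it had 144 and 57.0 beside 11.9 and 13.9 and passed (2.72, SE 0.65, adjusted p = 0.0388).

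The highest tubulin signal was at the start of Tubb4b, a widely expressed beta-tubulin, with 389 and 264 beside 8.04 and 33.6 (4.19, SE 0.88, adjusted p = 0.0311). Tuba4a, an alpha-tubulin, had its region over the last exon, where it holds the consensus shown above, with 188 and 265 beside 18.5 and 0 (5.66, SE 1.74, adjusted p = 0.0595). The Tubb1 and Tubb5 regions lay at the starts of Atp5e and Mdc1, and the Tubg1 region lay within 1 kb of the start of Retreg3 as well. Members of the alpha- and beta-tubulin families are close copies with pseudogenes, and the sources used here do not give how reads that align to several places were handled.

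Mitotic kinesins had a region for 4 of 12 genes. The highest was Kif22, a chromosome arm motor, with 333 and 331 beside 23.7 and 81.8 (2.88, SE 0.78, adjusted p = 0.0486), in a region that lay beyond the annotated end of the gene body, within 1 kb of 1 of its annotated starts but closest to the start of Maz. Kif23, which acts at the midbody in cytokinesis, had 276 and 207 at its start beside 0 and 18.1 (adjusted p = 0.0566) and 249 and 334 beside 0 and 12.4 at the start of the neighbouring Rplp1 (adjusted p = 0.0401). The Kif2c region, with 172 and 87.9 beside 36.3 and 0, lay 7.79 kb before the start of this depolymerising kinesin and at a noncoding transcript (adjusted p = 0.135). The spindle kinesins Kif11, Kif15, Kif20a, Kif20b and Kif4 had no region within 10 kb, the nearest lying between 42.8 kb (Kif20b) and 448 kb (Kif4).

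Among the other kinesins 6 of 12 regions passed, beside 64.8% of all regions. The highest of them was tied to Kif9, a kinesin of motile cilia, by distance alone, since it lay at the start of the histone methyltransferase gene Setd2, with 454 and 270 beside 23.6 and 0 (adjusted p = 0.0592). The intron region of Kif27 (chr13:58346888-58349166) was the only member region lower in Pou4f1 than in the controls, with 59.0 and 64.6 beside 88.7 and 172, and the difference did not pass (-0.99, SE 0.53, adjusted p = 0.16). Soft-masked repeats made up 97.0% of it, against a median of 6.19% over member regions. The part of the repeat in the result was not tested.

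By place, 35 of the 70 regions lay at a member's own start and 23 of these passed. There were 14 in introns (8 passed), 11 at the start of another coding gene (7), 6 outside the gene (5), 2 in exons (1) and 2 at the start of a noncoding transcript (0). The share that passed was 65.7% at own starts and 63.6% for the 22 regions away from any start, beside 62.0% of all regions at a coding start and 69.7% of all regions away from starts. Of the 35 at an own start, 6 also lay within 1 kb of the start of another coding gene, and signal there cannot be assigned to either. Taking only the 57 regions at an own start or with no other coding gene nearer than the member, 36 passed (63.2%).

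Pou4f1 replicates differed by place (the plot of replicate 2 against replicate 1). Replicate 1 was higher in 32 of the 35 regions at an own start, with a median ratio of replicate 2 to replicate 1 of 0.72. In the 22 regions away from any start the median ratio was 1.07, and replicate 2 was higher in 12. The same held over the whole table, with medians of 0.70 at coding starts and 1.16 away from starts. An order of members by signal therefore depends on the replicate, and the intron regions of Eml1 and Kif26b were higher in replicate 2 while the start of Stmn2 was nearly equal in both.

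**Figure D4:**
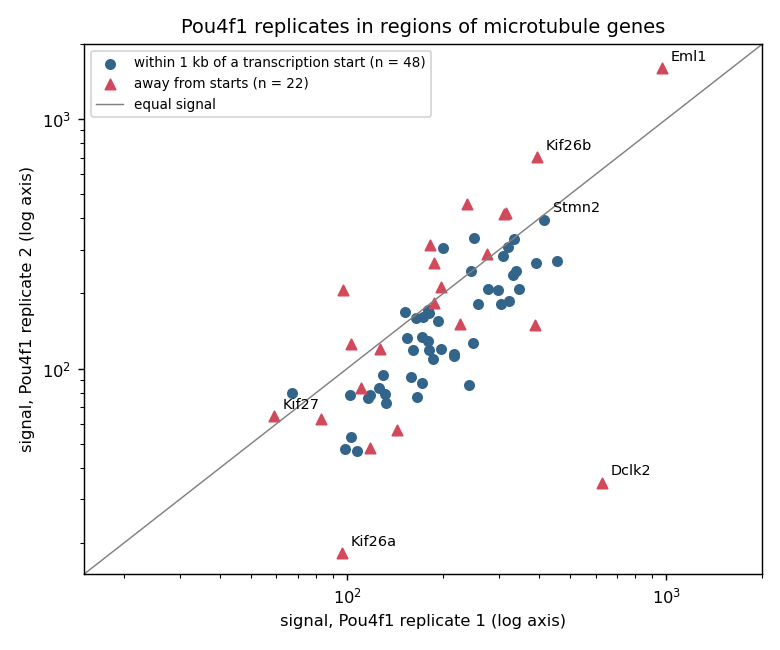
Signal in Pou4f1 replicate 2 against replicate 1 on log axes for the 48 regions within 1 kb of a start (blue circles) and the 22 away from starts (red triangles), with the line of equal signal. Most circles lie below the line, Eml1 and Kif26b lie above it at the upper right, and the Dclk2 and Kif26a introns lie far below it.

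Signal over the members was typical of the table. The median was 186 and 150 in the Pou4f1 replicates over member regions, beside 184 and 155 over all 8038. In the controls it was 6.22 and 8.55 beside 4.78 and 7.96. Of the 70 regions, 3 (4.29%) were in the top 10% by mean Pou4f1 signal, namely the introns of Eml1 and Kif26b and the start of Stmn2. The median GC content was 60.7%, beside 59.6%.

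A list of 80 further microtubule genes that the symbols leave out, such as those for dynactin, severing enzymes, end-binding proteins and tubulin-modifying enzymes, gave a similar picture. Of these, 46 (57.5%) had a region within 10 kb, beside 59.6% of members and 34.8% of all protein-coding genes. Beside 39.3% of members and 24.8% of all protein-coding genes, 38 of the 80 (47.5%) had a region at their own start. Of their 61 regions, 35 passed with higher signal in Pou4f1 (57.4%, beside 64.8% of all regions), 26 did not, and 0 passed in the opposite direction by limma, with 0 at an unadjusted p under 0.05. The 5 highest signals were at Nav2, Bicd2, Tppp3, Map9 and Kifap3. An intron of Nav2, a gene of neurite outgrowth, had 582 and 998 beside 22.4 and 0 (adjusted p = 0.0433).

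A region 5.93 kb before the start of Bicd2, an adaptor of dynein, had 427 and 709 beside 0 and 0 (adjusted p = 0.00222). At the start of Tppp3, which bundles microtubules, signal was 565 and 416 beside 30.5 and 35.1 (adjusted p = 0.00772), and at that of Map9, a spindle and cilium MAP, 445 and 486 beside 0 and 15.9 (adjusted p = 0.0401). The start of Kifap3, the accessory subunit of kinesin-2, had 513 and 377 beside 23.6 and 0 and did not pass (adjusted p = 0.0536). The Pou4f1 libraries were above the controls in all 5.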

How the data were processed

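CUT&Tag libraries were those of wild-type E16.5 retina given above. The authors trimmed and masked the reads, aligned them to mm10 with Bowtie2 (2.4.5) called regions with SEACR (relaxed mode) and deposited a signal value for each of 8038 regions in 4 libraries. Not given in the sources used here are how the deposited signal was averaged and scaled, whether regions were called on pooled replicates, and the depth of each library, so no interval for counting error was given. Regions were joined to GENCODE M21 genes, and starts were those of annotated transcripts. Signal was compared with limma (3.58.1) on log2(signal + 1) over all regions, without pairing, and was tested on simulated data. Intron and exon numbers are those of the longest coding transcript over the midpoint of a region, or of the longest transcript where no coding one covers it.

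The members, roles and lists were chosen with earlier results of these data known. Regions named in the text were the highest of each role, all regions of listed neuronal and mitotic genes, members with most regions, central consensus matches, regions with an IgG library at or above a Pou4f1 library, replicates over 4-fold apart, the 3 largest and 3 smallest differences, and the 5 highest of the further list. Values are also given for Kif5b and Kif13b, which met none of these rules. Alternatives covered scaling, pseudocount, filter, variance trend, call rule, distance rule and leaving out each library.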

Additional observations from a re-analysis of the deposited data

How the results depend on the processing

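No paired analysis was possible because the IgG columns carry no replicate number. The number of member regions higher in Pou4f1 (44 as reported) fell to 16 with IgG taken as 2 times shallower, 11 with 4 times (1 lower), 10 with column totals as library sizes (2 lower) and 24 with a pseudocount of 0.1, and was 66 with 10, which kept all 44. Leaving out 1 library gave 15 to 68 regions higher and 0 to 1 lower, with 15 without Pou4f1 replicate 1, 16 without replicate 2, 67 without the library named IgG and 68 without the negative control. The other calls were within 1.5 times. The 10 regions called in every setting were all at 0 in both controls, where scaling of IgG changes nothing. The median log2 difference was 4.30 with IgG 4 times shallower, 2.83 with column totals, 6.96 and 3.44 with pseudocounts of 0.1 and 10, and 4.25 to 5.44 with 1 library left out.

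For the further list the number higher (35) became 18, 11, 10, 23 and 56 under the same 5 settings and 14 to 59 with 1 library left out, and the median became 3.92 with IgG 4 times shallower, 2.56 with column totals, 6.57 and 3.44 with the pseudocounts and 3.75 to 5.25 with 1 library left out.

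Directions in each setting are given here only for the 41 regions that the naming rules above select, and not for the other member regions. Among the 41, directions turned under column totals for the starts of Dync1i1 (-2.63), Klc1 (-2.42), Kif1a (-1.18), Kif22 (-1.13), Dclk2 (-1.10) and Map2 (-0.62). The same held for the starts of Klc2 (-0.37) and Kif1b (-0.13) and the region upstream of Tubb2b (-1.22). Directions also turned for the first region of Kif26a (-0.85) and the last of Dclk1 (-0.45). They turned with IgG 4 times shallower for Dync1i1 (-0.60) and Klc1 (-0.40), and without the negative control for the Dclk2 intron (-1.57, beside 7.23 without the library named IgG). The cause was not tested.

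The share of members with a region (59.6%) was 47.2% for gene bodies, 78.7% within 50 kb, 39.3% at own starts and 41.6% with called regions only. For all coding genes (34.8%) it was 27.7% for bodies, 29.7% within 2 kb, 52.9% within 50 kb and 24.8% at own starts. It was 23.3% with called regions and 28.9% where no other coding gene was nearer. For the further list (57.5%) it was 75.0% within 50 kb and 35.0% with called regions. The unknown depth and the step of the signal limit all values with a control near 0.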

Other observations

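Of the 36 members without a region within 10 kb, 17 had one within 50 kb. The nearest to Stmn4, a neuronal stathmin, was 18.95 kb away with signals of 208 and 199.8 in Pou4f1 beside 0 and 24.99 in the controls, and no start of another coding gene was closer to it than that of Stmn4. Those nearest to Tuba1b (12.9 kb), Tubb4a (19.3 kb), Kif3c (19.6 kb), Eml2 (21.5 kb) and Kif5a (27.2 kb) were each closest to the start of another gene, namely Lmbr1l, Slc25a23, Asxl2, Opa3 and Ddit3. For Dcx and Kif4 the nearest regions, 183 kb and 448 kb away, were lower in both Pou4f1 libraries than in either control, at 76.1 and 57.2 beside 177 and 261 and at 79.1 and 19.5 beside 164 and 92.4.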
